A study of Mus musculus with 12 samples.

Results

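Immediate early genes are transcribed within minutes of a stimulus, from factors already present in the cell, and many of their products are transcription factors or brakes on growth. In the adrenal gland, ACTH acting through cyclic AMP, protein kinase A and CREB, and splanchnic nerve activity acting on chromaffin cells, are known to induce genes of this class. The 8 genes described here were chosen by symbol as immediate early and acute stress genes, namely Fos, Atf3, Egr2, Egr3, Nr4a1, Klf6, Btg2 and Gadd45b. The part of the array values used here names 6986 genes, mainly of chromosomes 1 and 10 to 15, and all shares below refer to that part. Each of the 8 was measured by 1 probeset. All 8 had a mean of at least 4 on the log2 scale in at least 1 group, the level needed to enter the tests, as had 4414 genes in all.

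Adrenal RNA was measured on 12 arrays in 4 groups of 3, namely male and female mice of the KK/HIJ strain (KK-M and KK-F), a model of obesity and type 2 diabetes, and male and female C57BL/6J mice (C57-M and C57-F). All mice were fed standard chow, had repeated fasting glucose and insulin tolerance measurements and a series of behavioral tests, and were euthanized at 21 weeks per the labels, the study's methods giving a slightly lower age; per those methods they were fasted and killed with an anaesthetic mixture. The 3 arrays of a group were hybridised with RNA from 1 pool of mice, so the SDs and p-values below measure the spread between arrays of a pool and not the spread between mice. A gene was called different where it differed by at least 1.4-fold with an adjusted p under 0.05 from limma, adjusted over all tested genes.

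The pools carried the markers of both adrenal compartments. Cyp11b1, the last enzyme of glucocorticoid synthesis in the cortex, lay between 12.43 and 12.87 on the log2 scale on all arrays, and Chga, the granule protein of chromaffin cells, between 11.83 and 12.7. Of 3 cortex markers of 14 listed, those besides Cyp11b1 were called different between groups. Cyp11b1 was not called, but its arrays did not overlap between KK-F (12.43 to 12.54) and C57-F (12.81 to 12.87). Cyp11b2 was called higher in males, by 1 ± 0.09 in KK (adjusted p = 5e-06) and 0.85 ± 0.09 in C57BL/6J mice (adjusted p = 2e-05). Its means were 10.22 in C57-M, 10.1 in KK-M, 9.37 in C57-F and 9.1 in KK-F. Hsd11b1 was called lower in KK mice, by -0.85 ± 0.12 in males and -0.66 ± 0.12 in females. Markers of chromaffin cells and of other tissues also differed between groups. The level of 12 skeletal muscle markers of 18 listed, averaged on the linear scale on each array and given as log2, was 6.64 to 6.88 in KK-M, 3.98 to 4.03 in KK-F, 4.46 to 4.56 in C57-M and 4.31 to 4.38 in C57-F. That of 12 hepatocyte markers of 20 was 4.18 to 5.16 in KK-M and 4.24 to 4.39 in KK-F, against 6.96 to 7.02 in C57-M and 7.66 to 7.73 in C57-F. That of 7 chromaffin markers of 14 was 10.79 to 10.92 in KK-M, 10.58 to 10.66 in KK-F, 10.35 to 10.42 in C57-M and 10.04 to 10.09 in C57-F. That of 6 adipocyte markers of 14 was 7.11 to 7.18 in KK-M and 6.35 to 6.49 in KK-F, against 7.53 to 7.71 in C57-M and 7.49 to 7.53 in C57-F, so that KK-F was lowest, as it was for several of the 8 genes. The part of these marker differences in the results below was not tested. In a whole gland fewer cells of a type and less RNA per cell cannot be told apart.

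Btg2 was higher in males of both strains, Fos in KK males and Atf3 in C57BL/6J males, while Klf6 and Nr4a1 were lower in KK than in C57BL/6J females. By the sign of the difference in means, 7 of the 8 genes were higher in males than in females in both strains, a pattern found in 28% of all tested genes, and the arrays of the sexes did not overlap in either strain for Fos, Nr4a1, Atf3, Btg2 and Gadd45b, a pattern found in 7.32% of all tested genes, although for Nr4a1 in C57BL/6J mice the gap lay beyond the second decimal. These directions held when the arrays were quantile normalized again or centred on their medians. Klf6 was the exception, with a C57-M minus C57-F difference of -0.24 ± 0.09 (SE, adjusted p = 0.065).

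**Figure D1:**
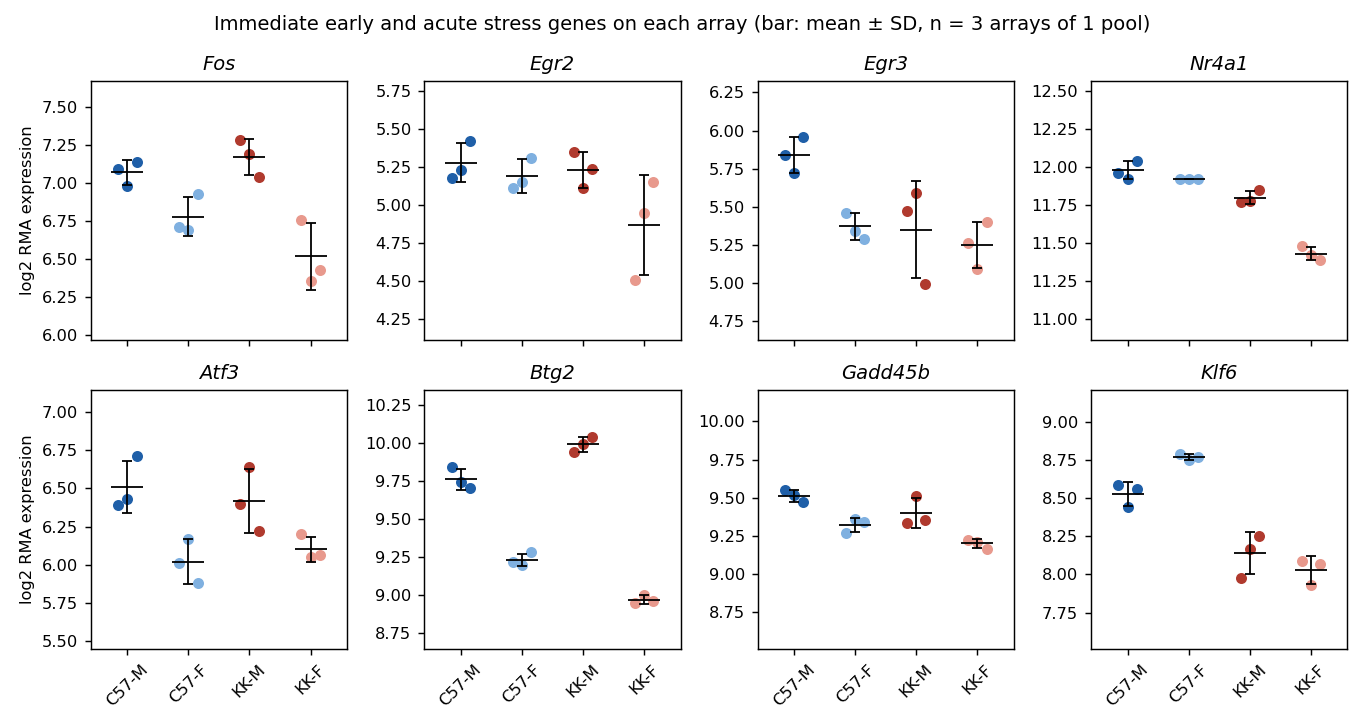
Log2 RMA expression of the 8 genes (y axis, a window of equal height in every panel) on each of the 3 arrays of the 4 groups (x axis). Points are arrays, and bars give the mean ± SD over 3 arrays of 1 pool; Btg2 separates all 4 groups, from 8.97 in KK-F to 9.99 in KK-M, while the groups of Egr2 overlap.

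Btg2 showed the widest difference. It encodes an antiproliferative cofactor of mRNA deadenylation that is induced by p53 and by growth and stress signals. Its log2 values were 9.94, 9.99 and 10.04 in KK-M and 8.95, 9 and 8.96 in KK-F. They were 9.84, 9.74 and 9.70 in C57-M and 9.22, 9.20 and 9.28 in C57-F. All males lay above all females, the KK males highest and the KK females lowest, and no 2 groups overlapped. The KK-M minus KK-F difference was 1.02 ± 0.08 (SE, 2.03-fold, adjusted p = 7e-07) and the C57-M minus C57-F difference was 0.53 ± 0.08 (1.44-fold, adjusted p = 0.00018), which a second quantile normalization moved to 0.45, below the fold threshold (adjusted p = 0.00088).

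The sex difference of Btg2 was larger in KK than in C57BL/6J mice. The difference between the 2 sex differences was 0.49 ± 0.11 (adjusted p = 0.0074), at 1.41-fold close to the threshold of 1.4, and it fell to between 0.47 and 0.48 in the 6 alternative fits that ended the call, with an adjusted p of 0.023 at most. Btg2 was the only 1 of the 8 genes called for strain by sex, against 13.9% of all tested genes. Accordingly its strain difference had opposite signs in the sexes, at 0.23 ± 0.08 in males (adjusted p = 0.034) and -0.26 ± 0.08 in females (adjusted p = 0.019), both under 1.4-fold. A second quantile normalization moved them to 0.41 (adjusted p = 0.0015) and -0.12 (adjusted p = 0.29), so that the difference in females no longer passed. Such a crossing with no overlap of arrays in either sex was found in 4.76% of all tested genes.

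Fos, which pairs with Jun proteins to form the transcription factor AP-1, followed the same order with more spread. Its values were 7.28, 7.19 and 7.04 in KK-M, 7.09, 6.98 and 7.14 in C57-M, 6.71, 6.69 and 6.93 in C57-F, and 6.76, 6.36 and 6.43 in KK-F. The arrays of the male groups lay above those of the female groups, while the 2 male groups overlapped each other and so did the 2 female groups. The KK-M minus KK-F difference was 0.65 ± 0.12 (1.57-fold, adjusted p = 0.00094). The C57-M minus C57-F difference was 0.29 ± 0.12 and missed the threshold (adjusted p = 0.074). The difference between these sex differences, 0.36 ± 0.16, was not called (adjusted p = 0.15).

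Atf3 encodes a stress-induced bZIP factor of the ATF/CREB family. Its values were 6.39, 6.43 and 6.71 in C57-M and 6.01, 6.17 and 5.88 in C57-F. They were 6.40, 6.64 and 6.22 in KK-M and 6.20, 6.05 and 6.06 in KK-F. Males were above females in both strains, by 0.49 ± 0.12 in C57BL/6J (1.41-fold, adjusted p = 0.0091) and by 0.32 ± 0.12 in KK mice, where the test was not passed (adjusted p = 0.072). The C57BL/6J difference fell below 1.4-fold without C57-M replicate 3, at 0.39, without C57-F replicate 3, at 0.42, and after a second quantile normalization, at 0.46.

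In KK mice 2 of the 8 genes, Btg2 and Fos, were called higher in males and none lower, against 7.27% of all tested genes called higher and 18.8% called in either direction. Of all genes called in KK mice 38.6% were higher in males, a share that became 61.4% after a second quantile normalization and 55.7% after median centring. In C57BL/6J mice 2 of the 8, Btg2 and Atf3, were called higher in males and none lower, against 4.33% called higher and 7.07% called in either direction. The arrays of the sexes did not overlap for 5 of the 8 genes in KK mice, against 46% of all tested genes, and for 7 of the 8 in C57BL/6J mice, against 32.2%. The median difference over the 8 genes was 0.34 in KK and 0.24 in C57BL/6J mice, beside -0.06 and 0.02 over all tested genes. Over both strains together, Btg2 alone of the 8 was called (0.78 ± 0.05, adjusted p = 2.4e-07), against 8.61% of all tested genes; on the 4 pool means alone its adjusted p was 0.16. Without the fold threshold 6 of the 8 genes passed the adjusted p, all higher in males, against 14.9% of all tested genes. The others in that count were Fos at 0.47, Atf3 at 0.40, Egr3 at 0.29, Nr4a1 at 0.21 and Gadd45b at 0.20.

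**Figure D2:**
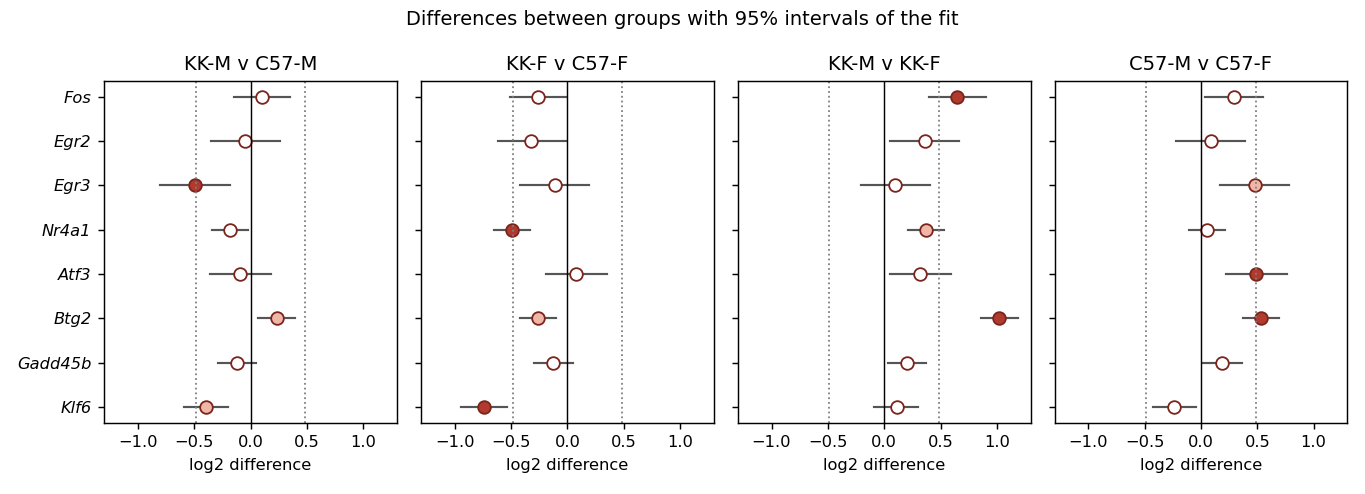
Log2 difference of each gene (y axis) in the 4 comparisons of groups (x axis, first group minus second). Points are estimates of the fit and lines their 95% intervals, dotted lines mark 1.4-fold, filled points passed both thresholds and pale points the adjusted p only; all 8 points of KK-M v KK-F lie above 0, from 0.10 to 1.02.

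Nr4a1, the orphan nuclear receptor Nur77, is induced by ACTH in the adrenal cortex and binds promoters of steroidogenic enzyme genes. Its values were 11.48, 11.42 and 11.39 in KK-F and 11.77, 11.78 and 11.85 in KK-M. They were 11.92 on each of the 3 C57-F arrays and 11.96, 11.92 and 12.04 in C57-M. The KK females lay below all other arrays, the KK males below both C57BL/6J groups, and the 2 C57BL/6J groups met at 11.92, apart only beyond the second decimal. The KK-F minus C57-F difference was -0.49 ± 0.07 (1.41-fold, adjusted p = 0.00025), and was 1.4-fold or more in every fit that left out 1 array but the one without KK-F replicate 3 (-0.48, adjusted p = 0.0015). The KK-M minus C57-M difference was -0.18 ± 0.07 (adjusted p = 0.09). KK-M exceeded KK-F by 0.37 ± 0.07 (adjusted p = 0.002), under the fold threshold, and C57-M exceeded C57-F by 0.05 ± 0.07 (adjusted p = 0.63).

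Klf6, a zinc finger factor of the Krüppel-like family induced by injury and growth signals, differed by strain. Its values were 8.79, 8.75 and 8.77 in C57-F and 8.59, 8.44 and 8.56 in C57-M. They were 7.98, 8.17 and 8.25 in KK-M and 8.09, 7.93 and 8.07 in KK-F. All KK arrays lay below all C57BL/6J arrays, the sexes overlapped in KK mice, and C57-F lay above C57-M. The KK-F minus C57-F difference was -0.74 ± 0.09 (1.67-fold, adjusted p = 5.3e-05). The KK-M minus C57-M difference was -0.40 ± 0.09 (adjusted p = 0.005), at 1.32-fold below the fold threshold. Over both sexes the difference was -0.57 ± 0.06 (1.48-fold, adjusted p = 1.2e-05), and Klf6 was the only 1 of the 8 genes called there, against 15.5% of all tested genes. This fell to -0.48, below 1.4-fold, after a second quantile normalization, and its adjusted p was 0.1 on the 4 pool means alone.

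Egr2 and Egr3, zinc finger factors of the early growth response family, had the widest spread within a group (SD of 0.33 for Egr2 in KK-F and 0.32 for Egr3 in KK-M). Egr3 values were 5.84, 5.72 and 5.96 in C57-M, 5.46, 5.34 and 5.29 in C57-F, 5.47, 5.59 and 4.99 in KK-M and 5.26, 5.09 and 5.40 in KK-F. The C57-M arrays lay above those of the other groups, which overlapped. The KK-M minus C57-M difference was -0.49 ± 0.14 (1.41-fold, adjusted p = 0.019). It was -0.31 (adjusted p = 0.06) without KK-M replicate 3, the lowest array, and -0.43 (adjusted p = 0.068) without C57-M replicate 3. C57-M exceeded C57-F by 0.48 ± 0.14 (adjusted p = 0.023), at 1.39-fold below the threshold. Egr2 ranged from 4.51 to 5.15 in KK-F, from 5.11 to 5.35 in KK-M, from 5.11 to 5.31 in C57-F and from 5.18 to 5.42 in C57-M, and was called in none of the 4 comparisons. Its widest difference was 0.36 ± 0.14 between KK-M and KK-F (adjusted p = 0.075), and it reached 0.50 (adjusted p = 0.019) without KK-F replicate 3.

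Gadd45b, a small stress sensor that binds kinases of the p38 and JNK pathways, was called nowhere but varied little between arrays. Its values were 9.55, 9.52 and 9.47 in C57-M, 9.33, 9.51 and 9.35 in KK-M, 9.27, 9.36 and 9.34 in C57-F and 9.22, 9.21 and 9.16 in KK-F. The male arrays lay above the female arrays within each strain, by 0.20 ± 0.08 in KK (adjusted p = 0.071) and 0.19 ± 0.08 in C57BL/6J mice (adjusted p = 0.081).

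Between strains, 1 of the 8 genes, Egr3, was called lower in KK males and none higher, against 13.4% of all tested genes called lower and 20.4% in either direction. Of all genes called between the males of the strains 34.5% were higher in KK, and 49.5% after a second quantile normalization. In females 2 of the 8, Klf6 and Nr4a1, were called lower in KK and none higher, against 9.06% called lower and 18.6% in either direction. The arrays of the strains did not overlap for 4 of the 8 genes in males, against 47.6% of all tested genes, and for 4 of the 8 in females, against 48.4%. The share of the 8 genes without overlap was thus near that of all genes. The median difference over the 8 genes was -0.11 in males, beside -0.07 over all tested genes, and -0.26 in females, beside 0.03. By sign 5 of the 8 genes were lower in KK in both sexes, a pattern found in 34.6% of all tested genes, but the signs of Egr2 in males and of Gadd45b in both sexes turned after a second quantile normalization. Klf6 and Nr4a1 were lower in KK with no overlap of arrays in either sex, a pattern of 14.4% of all tested genes.

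Promoter stretches of 5 of the genes are shown because cyclic AMP signalling is known to reach Fos and Nr4a1 through CREB sites. The windows searched ran from 250 bases before to 50 after the start of transcription in RefSeq (GRCm38.p6), and 7 of the 8 genes had one, Egr3 being the gene without an entry. The half-site of the cyclic AMP response element, TGACG on one strand or CGTCA on the other, occurred in 5 of these 7 genes, namely Fos, Egr2, Nr4a1, Atf3 and Btg2, and in 20.8% of all 32851 promoter windows or 23% of the genes they belong to. A CArG box, the site of serum response factor, occurred in 1 of the 7, Egr2, which has several listed starts, and in 1.63% of all windows. Sites more than 250 bases before the start were not searched, so a gene without a match may hold one farther away. The stretches below are read 5′ to 3′ on the strand of the gene and end before its start, with matches in capitals; in Btg2 the half-sites of both strands overlap in 1 palindrome, and in Egr2 the first match is the CArG box.
Btg2 (chr1:134079286-134079345, minus strand): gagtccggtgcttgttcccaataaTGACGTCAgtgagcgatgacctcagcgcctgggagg
Fos (chr12:85473750-85473859, plus strand): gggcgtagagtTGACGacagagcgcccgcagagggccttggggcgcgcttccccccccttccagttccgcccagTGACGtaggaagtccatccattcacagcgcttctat
Nr4a1 (chr15:101266766-101266825, plus strand): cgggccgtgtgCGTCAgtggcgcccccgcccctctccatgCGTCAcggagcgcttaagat
Atf3 (chr1:191183334-191183363, minus strand): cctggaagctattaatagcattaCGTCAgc
Egr2 (chr10:67537794-67537823, plus strand): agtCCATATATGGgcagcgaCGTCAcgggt

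The matches began at -166 and -163 from the start in Btg2, at -129 and -66 in Fos, at -7 in Atf3, and at -69 and -40 in the stretch of Nr4a1, whose window held 2 further matches at -233 and -213. Gadd45b and Klf6 held no match in their windows. These matches describe letters in the reference genome of C57BL/6J; binding was not measured, and the KK sequence was not read.

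Across the 12 arrays the 8 genes tended to vary together, with arrays of a group sharing their pool. Of 28 pairs of genes 27 had a positive Pearson r, with a median of 0.55. The same was not computed for pairs of all tested genes, so these values have no background beside them. The highest r was 0.88, between Fos and Btg2, followed by 0.79 between Nr4a1 and Klf6, and the lowest was -0.13, between Atf3 and Klf6. Against the mean profile of the other 7 genes, r was highest for Gadd45b at 0.89 and Nr4a1 at 0.84 and lowest for Klf6 at 0.28. The mean profile, each gene centred on its own mean, was 0.16 to 0.29 in C57-M, 0.03 to 0.16 in KK-M, -0.03 to 0 in C57-F and -0.34 to -0.26 in KK-F.

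Of 4044 other tested genes with a gene name, the 8 most like this profile over the 12 arrays were Gstt1, a glutathione transferase, Dcn, the matrix proteoglycan decorin, Rnf167, a ubiquitin ligase (r = 0.97 each), Rtn4rl1, a Nogo receptor homolog, Ajuba, a LIM domain protein, Bsg, the surface protein basigin, Tgfbi, a matrix protein induced by TGF-beta (0.96 each), and Ly6d, a surface protein of the Ly6 family (0.95). In all 62 genes had an r above 0.9, and the median was -0.04. Ly6d had means of 10.82 in C57-M, 9.97 in KK-M, 9.79 in C57-F and 6.83 in KK-F. Dcn had means of 10.15, 9.81, 9.37 and 8.20 in the same order of groups. Dcn was also 1 of 5 fibroblast and smooth muscle markers of 12 listed. Their level, averaged on the linear scale, was 8.9 to 8.99 in C57-M, 8.82 to 8.86 in KK-M, 8.74 to 8.81 in C57-F and 8.8 to 8.92 in KK-F and did not follow Dcn. Of these 5, 3 were called higher and 1 lower in KK males than in females, against 7.27% and 11.6% of all tested genes. Lum (0.92 ± 0.11) and Col1a1 (0.52 ± 0.10) were higher in KK males, as was Dcn (1.6 ± 0.08). Sparc, with means of 10.23 in KK-M and 10.91 in KK-F, was lower (-0.68 ± 0.08, adjusted p = 3.1e-05).

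**Figure D3:**
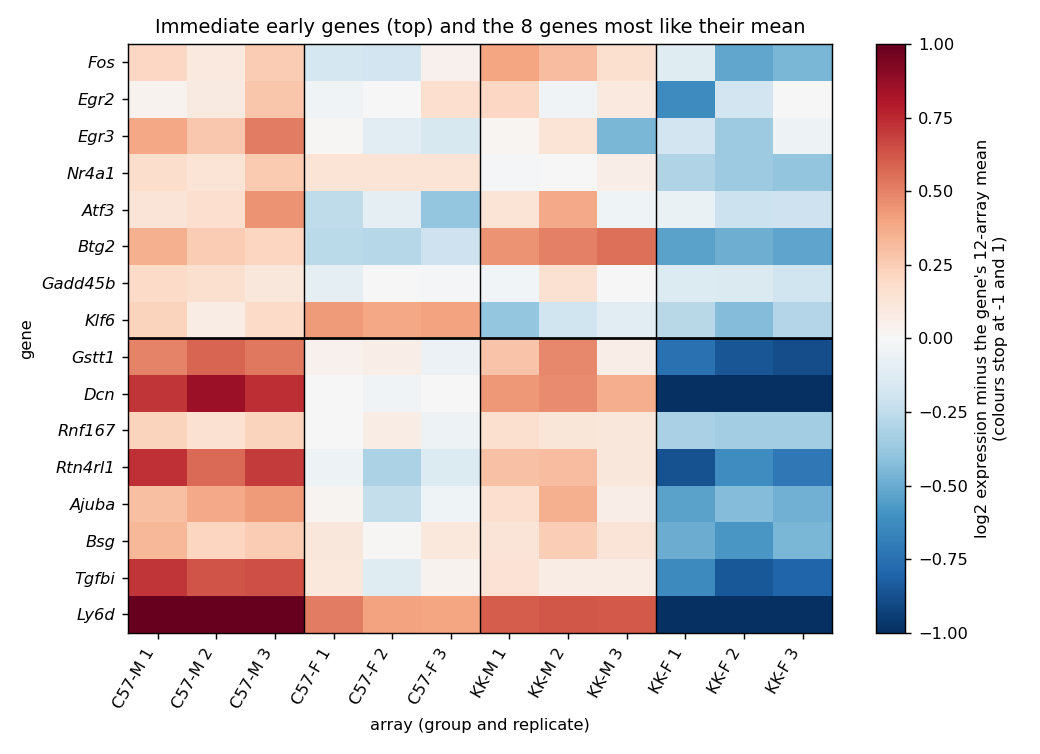
Log2 expression minus the 12-array mean of each gene, as colour, for the 8 immediate early and acute stress genes and, below the line, the 8 genes most like their mean (y axis), on the 12 arrays (x axis). C57-M arrays are mostly above and KK-F arrays mostly below the mean, Klf6 being high in both C57BL/6J groups; values past 1 in either direction have the end colours.

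Of 38 genes listed as other immediate early transcription factors, 11 were tested, namely Klf10, Klf11, Maff, Myc, Mycn, Nfil3, Id2, Id4, Ier5, Per1 and Sox9. Fosb, Jun, Junb and Egr1 of the list were not in the values used here, so the 11 do not stand for the whole class. None of the 11 was called higher in males in either strain. Of them 3 were called lower in KK males than in KK females and 1 lower in C57BL/6J males than in females. In KK mice these were Sox9, a developmental factor (-1.09 ± 0.19, adjusted p = 0.00066), Nfil3, a bZIP repressor (-0.98 ± 0.09, adjusted p = 7.1e-06), and Id2, an inhibitor of bHLH factors (-0.67 ± 0.10, adjusted p = 0.00028). In C57BL/6J mice it was Myc, the growth regulator (-0.73 ± 0.10, adjusted p = 0.00011). The median sex difference of these 11 genes was 0.04 in KK and 0.05 in C57BL/6J mice. Of all tested genes 7.27% were called higher and 11.6% lower in KK males than in KK females, and 4.33% higher and 2.74% lower in C57BL/6J males than in females, so that none higher of 11 is near the share over all genes. Between strains, Id2 (-1.01 ± 0.10) and Sox9 (-0.77 ± 0.19) were called lower in KK males and no gene was called in females.

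Early induced signalling and feedback genes went both ways. Of 19 tested, 2 were called higher and 5 lower in KK males than in KK females, and 5 higher and 4 lower in C57BL/6J males than in females, against 18.8% and 7.07% of all tested genes called in either direction. Socs2, a feedback inhibitor of growth hormone signalling, was lower in males of both strains, by -1.46 ± 0.16 in KK (adjusted p = 2.4e-05) and -0.82 ± 0.16 in C57BL/6J mice (adjusted p = 0.0019). Nfkbia, the inhibitor of NF-kappaB, was -1.16 ± 0.09 in KK males against KK females (adjusted p = 1.5e-06). KK-F stood apart for this gene, with a mean of 8.94 against 7.79 in KK-M, 7.81 in C57-M and 7.92 in C57-F. Nfkbia was called higher in KK-F than in C57-F (1.03 ± 0.09, adjusted p = 4.2e-06). In that comparison 3 of the 19 genes were called higher and 1 lower, against 9.56% and 9.06% of all tested genes. Plk2, a polo-like kinase, was higher in males by 0.53 ± 0.09 in KK (adjusted p = 9e-04) and 0.78 ± 0.09 in C57BL/6J mice (adjusted p = 4.6e-05). Ptgs2, the inducible cyclooxygenase, and Rgs1, a regulator of G protein signalling, exceeded their C57-F levels in C57-M, by 0.73 ± 0.22 (adjusted p = 0.023) and 0.74 ± 0.14 (adjusted p = 0.0013), and lay below C57-M in KK-M, at -1.14 ± 0.22 (adjusted p = 0.0015) and -1.01 ± 0.14 (adjusted p = 0.00013). Rgs1 lay near the level of 4 needed to enter the tests. Its means were 4.7 in C57-M, 4 in KK-F, 3.96 in C57-F and 3.69 in KK-M. Neither Ptgs2 nor Rgs1 differed between KK-F and C57-F past the test (0.02 ± 0.22, adjusted p = 0.96, and 0.04 ± 0.14, adjusted p = 0.86). The level of 4 macrophage markers of 10 was 8.77 to 8.85 in C57-M, 7.74 to 7.86 in C57-F, 8.09 to 8.33 in KK-M and 8.21 to 8.62 in KK-F, highest in C57-M like these genes but also higher in KK-F than in C57-F, and its part was not tested.

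**Figure D4:**
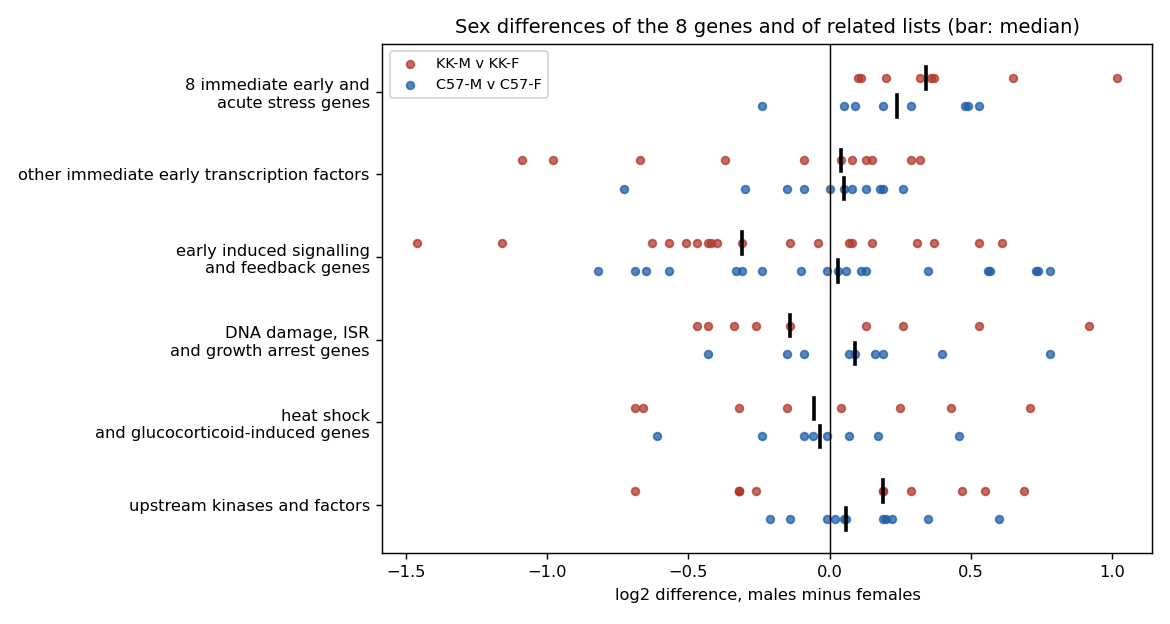
Log2 difference of males minus females (x axis) for the 8 genes and for 5 lists of related genes (y axis), in KK mice (red) and C57BL/6J mice (blue). Points are genes and black bars medians. The medians of the 8 genes are 0.34 and 0.24, those of the 11 tested genes listed as other immediate early transcription factors 0.04 and 0.05.

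Genes of DNA damage and growth arrest respond to signals that also induce Btg2 and Gadd45b. Of 9 tested, 2 were called higher and none lower in KK males than in KK females, and 1 higher and none lower in C57BL/6J males, against 18.8% and 7.07% of all tested genes called in either direction. The KK genes were Phlda3, a p53-induced inhibitor of Akt (0.92 ± 0.10, adjusted p = 1.4e-05), and Plk2, which is on both lists. Between strains 3 genes were called lower in KK males, namely Ccng1, Mdm2 and Sesn1, at -0.65 ± 0.09, -0.53 ± 0.12 and -0.51 ± 0.16, and none higher, against 13.4% and 7.05% of all tested genes. Mdm2 at 1.44-fold and Sesn1 at 1.42-fold lay close to the threshold. Over alternatives other than another fold threshold the list had 1 to 3 calls there. In females 1 was lower in KK, Phlda3 (-1.12 ± 0.10, adjusted p = 2.6e-06), and 1 higher, Plk2 (0.56 ± 0.09, adjusted p = 0.00058), against 9.06% and 9.56%.

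Among 8 tested heat shock and glucocorticoid-induced genes, 1 was called higher and 2 lower in KK males than in KK females. Of all tested genes 7.27% were called higher and 11.6% lower there. Hspb1, a small heat shock protein, was higher in KK males (0.71 ± 0.16, adjusted p = 0.0044), and the mitochondrial chaperonins Hspd1 and Hspe1 were lower (-0.69 ± 0.10 and -0.66 ± 0.11). In C57-M none was called higher and 1 lower than in C57-F, against 4.33% and 2.74% of all tested genes. That gene was Hspe1 (-0.61 ± 0.11, adjusted p = 0.0013). Hspb1 was also higher in C57-M, under the fold threshold (0.46 ± 0.16, adjusted p = 0.045). Only the male groups brought Hspb1 to the level of 4 needed to enter the tests. Its means were 4.41 in KK-M and 4.16 in C57-M, against 3.69 in KK-F and 3.7 in C57-F. Its call is therefore not independent of that filter. Hspd1 did not pass the test there (-0.24 ± 0.10, adjusted p = 0.076). Dnajb9, a chaperone of the endoplasmic reticulum, was lower in KK mice of both sexes, by -0.83 ± 0.10 in males and -1.33 ± 0.10 in females. Sgk1, a kinase induced by corticosteroids, was lower in KK females (-0.53 ± 0.08, adjusted p = 0.00022).

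Of 11 tested kinases and factors listed as upstream of the 8 genes or as cofactors of their products, 2 were called higher and 1 lower in KK males than in KK females. In C57BL/6J males 1 was higher and none lower. Of all tested genes 7.27% were higher and 11.6% lower in KK males, and 4.33% and 2.74% in C57BL/6J males. Between strains 1 was higher and 4 lower in KK males, against 7.05% and 13.4% of all tested genes. In KK females 1 was higher and 2 lower, against 9.56% and 9.06%. The median strain difference was -0.38 in males and -0.33 in females, beside -0.07 and 0.03 over all tested genes. Prkar2b, a regulatory subunit of protein kinase A, was higher in males by 0.69 ± 0.09 in KK (adjusted p = 0.00013) and by 0.60 ± 0.09 in C57BL/6J mice (adjusted p = 0.00039). It was lower in KK mice, by -0.55 ± 0.09 in males and -0.64 ± 0.09 in females. Rps6ka5, the kinase MSK1, which phosphorylates CREB, was higher in KK mice of both sexes, by 0.58 ± 0.14 and 0.52 ± 0.14. Nab1, a corepressor of EGR factors, was lower in KK than in C57BL/6J males (-0.85 ± 0.13, adjusted p = 0.00023).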

How the data were processed

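Total adrenal RNA was hybridised to Affymetrix mouse gene arrays, 3 arrays of 1 pool in each of 4 groups. The deposited log2 values were made by the authors with Partek and RMA (background correction, quantile normalization, median polish), whose versions and genome build are not given in the labels. The table used here holds 16378 probesets, of which 7358 had 1 gene symbol in the platform annotation, 456 several and 8564 none. Of the probesets with 1 gene, 7310 were matched to RefSeq, and 7277 of these lay on chromosomes 1 and 10 to 15. Array medians were 3.88 to 3.99; the number of arrays limits the precision.

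Each gene was represented by its brightest probeset on average. limma 3.58.1 in R 4.3.3 was fitted with 1 mean per group to the 4414 genes with a mean of at least 4 in at least 1 group. Benjamini-Hochberg adjustment ran jointly over the 4 comparisons of groups, and separately for the mean strain, mean sex and strain by sex effects. All 8 genes are described; of each related list, up to 4 called genes with the largest difference per comparison were eligible to be named. The genes and lists were chosen with earlier results of these data known. The procedure was tested on simulated data. Filters, scalings, variance models, thresholds and the omission of each array were varied.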

Additional observations from a re-analysis of the deposited data

Results flagged for a closer look

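The sex difference of Btg2 differed between the strains by the test of the difference itself, at 0.49 ± 0.11 on the log2 scale (limma, adjusted p = 0.0074). The sex difference was 1.02 in KK and 0.53 in C57BL/6J mice. At 1.41-fold this lay close to the threshold of 1.4, and several alternative fits ended the call. Among the 8 genes 1 was called for strain by sex, near the share of 13.9% over all tested genes. The arrays of a group share 1 pool, so the spread between mice was not measured. The mean level of the skeletal muscle markers also separated KK males (6.64 to 6.88) from KK females (3.98 to 4.03), and its part in the Btg2 difference was not tested.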

How the results depend on the processing

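Of the 10 calls among the 8 genes, 4 were kept in every alternative other than another fold threshold and the fit to the 4 pool means, namely Btg2 and Fos between KK-M and KK-F, Klf6 between KK-F and C57-F, and Btg2 over both strains. With a 2-fold threshold Btg2 between KK-M and KK-F was the only call kept, so 1 gene was called there and 0 in each other effect. With a 1.2-fold threshold 2 of the 8 genes were called in KK-M v C57-M, 3 for the mean strain difference and 4 for the mean sex difference. A second quantile normalization left 0 genes called in KK-M v C57-M, C57-M v C57-F and the mean strain difference, and 2 in the mean sex difference and the interaction (Btg2 and Fos). Array weights left 0 in KK-M v C57-M and the interaction and gave 2 in the mean sex difference, as did median centring. The 4 pool means gave 0 for the mean sex and mean strain differences. Leaving out 1 array gave 0 to 1 called genes in KK-M v C57-M and the interaction, 1 to 2 in KK-F v C57-F and the mean sex difference, 1 to 3 in C57-M v C57-F, and 2 to 3 in KK-M v KK-F.

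Over all tested genes, thresholds of 1.2-fold and 2-fold gave 1555 and 170 calls in KK-M v C57-M (902 at 1.4-fold), 1422 and 184 in KK-F v C57-F (822), 1486 and 155 in KK-M v KK-F (831), 695 and 34 in C57-M v C57-F (312), 1585 and 133 for the mean strain difference (683) and 1113 and 58 for the mean sex difference (380). The interaction had 131 at 2-fold (612). The pool means gave 289 for strain and 10 for sex. A second quantile normalization moved the median of all genes from -0.06 to 0.06 in KK-M v KK-F and from -0.08 to 0.04 in the interaction. The share of calls that were higher moved from 27.5% to 53.2% in the interaction, or 37% with median centring, and from 53.7% to 65.1% and 66.1% in the mean sex difference.

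Small differences that were not called changed sign. The second quantile normalization gave 0.02, 0.01 and 0.01 for Atf3 in KK-M v C57-M, the mean strain difference and the interaction, 0.15 for Btg2 in the mean strain difference, 0.01 for Egr2 in KK-M v C57-M, and 0.08 for Gadd45b in both strain comparisons and their mean. Array weights gave 0.03 for Atf3 in the mean strain difference. Leaving out 1 array gave -0.2 to 0.01 for Atf3 and -0.1 to 0.02 for Egr2 in KK-M v C57-M, -0.06 to 0.04 for Atf3 and -0.03 to 0 for Btg2 in the mean strain difference, -0.02 to 0.28 for Egr3 in KK-M v KK-F, and -0.05 to 0.04 for Gadd45b in the interaction.

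Same-numbered arrays of different groups did not deviate together (18 correlations of -0.1 to 0.12, median 0), so the numbers pair nothing; with the replicate number as a block the calls among the 8 genes stayed at 1 in KK-M v C57-M, 2 in KK-F v C57-F, 2 in KK-M v KK-F and 2 in C57-M v C57-F, and those over all genes went from 902 to 908 in KK-M v C57-M. Counts in the related lists moved mostly with the fold threshold; over the other alternatives the early signalling list had 5 to 9 calls in KK-M v KK-F (7) and 7 to 9 in C57-M v C57-F (9), and the other immediate early transcription factors 3 to 3 (3) and 1 to 1 (1). Causes of these shifts were not tested.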
